A study of Rattus norvegicus with 14 samples.

Results

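The genes described here make, package, take up, break down and sense GABA, the main inhibitory transmitter of the brain. They are Gad1, Gad2, Slc32a1, Slc6a11, Abat, Gphn, Gabbr1, Gabbr2 and Slc12a5, 9 genes of the 10411 that the platform annotation names alone on a probe set. Every probe set whose only gene symbol is one of these names was kept, which gave 16 of the 15866 probe sets other than controls. Of these, 9 probe sets from 5 genes had a mean of at least 4 on the log2 scale and were tested, and 7 had a lower mean. Gad2, Slc32a1, Slc6a11 and Abat had no tested probe set.

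RNA came from the microdissected dentate gyrus of male Long-Evans rats aged 3 to 4 months, 7 in the control group and 7 in the learning group, with 1 Affymetrix array per rat. All rats carried the same history, which was spatial training in a water maze 2 to 3 weeks before. Each had 1 further session of 8 trials, spaced by 8 min, in a second pool. Learning rats found the visible platform in a constant place with orienting cues around the pool. Control rats found it in changing places without such cues. A swim of 90 s without the platform was given 1 h after the last trial, and the tissue was taken directly afterwards. Both groups therefore swam, and the contrast is between sessions with and without stable spatial information. The labels call the arrays biological replicates, name no shared litter or day, and give no batch.

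GABA is made from glutamate by glutamic acid decarboxylase, whose larger form is encoded by Gad1 and smaller form by Gad2. Slc32a1 encodes the transporter that loads GABA into synaptic vesicles. Slc6a11 encodes a plasma membrane GABA transporter found mainly on astrocytes, and Abat the transaminase that degrades GABA. Gphn encodes gephyrin, the scaffold that holds GABA-A and glycine receptors at inhibitory synapses. Slc12a5 encodes the neuronal potassium-chloride cotransporter, which keeps chloride low inside neurons so that GABA-A currents inhibit. Gabbr1 and Gabbr2 encode the subunits of the GABA-B receptor, a G protein coupled receptor that works as a dimer of both. In the dentate gyrus, GABA neurons of the hilus and the granule cell layer hold back the firing of the far more numerous granule cells.

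No GABA gene passed the test between the groups in limma. Among the tested probe sets 0 of 9 passed an adjusted p of 0.05, as did 0% of all 9387 tested, and the lowest adjusted p was 0.315. At an unadjusted p below 0.05 there were 2 of 9, or 22.2%, against 13.1% of all tested probe sets. Both were lower in learning rats, a direction and threshold that 6.67% of all tested probe sets met. They were the brighter probe set of Gad1 and the dimmer one of Gabbr2. The count was 1 or 2 over the alternatives run, and 1 with the replicate number as a block. It was not always these probe sets. Without control replicate 1 their unadjusted p values in limma were 0.0647 and 0.0509, and the 1 counted was Gphn at 0.00997. For 0 of 9 did the 2 groups of 7 not overlap, against 0.405% of all tested. Over the tested probe sets the median difference, learning minus control, was -0.04 log2 units and the median absolute difference 0.08, beside 0.005 and 0.08 over all tested. With 1 probe set per gene, the one of highest mean, 5 of 5 genes were lower in learning rats, beside 3311 of all 6697 tested genes. Gabbr1, Gabbr2 and Slc12a5 were lower by no more than 0.04, and Gabbr2 turned to 0.01 without control replicate 1 and to 0.0064 without learning replicate 1. Only Gad1 had an unadjusted p below 0.05, as did 12.6% of all tested genes. Over all 9 probe sets 2 were higher and 7 lower.

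**Figure D1:**
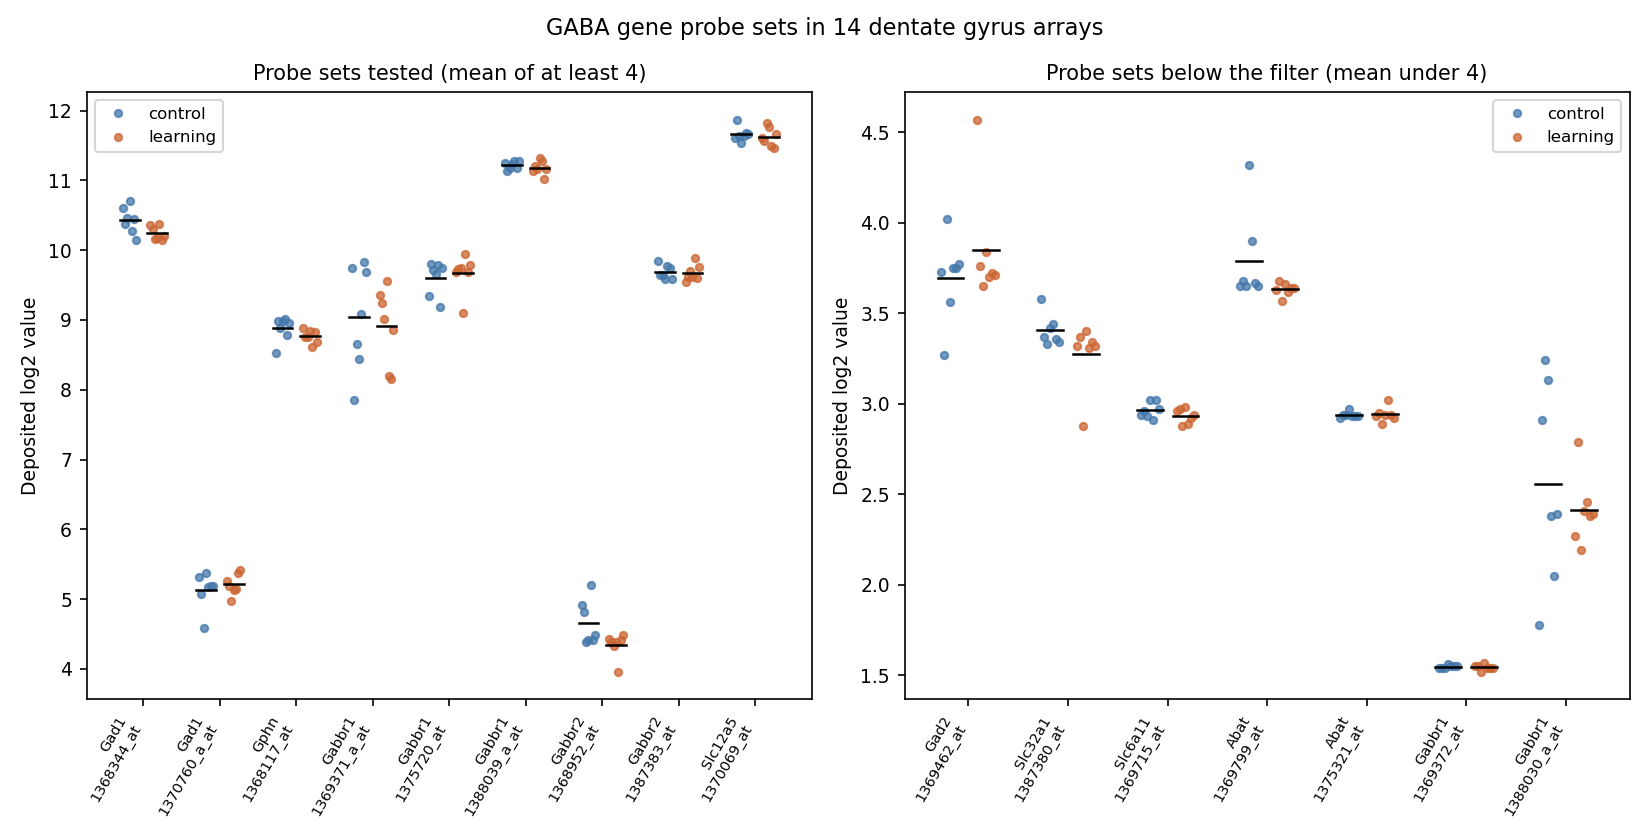
Deposited log2 value (vertical axis) of each GABA gene probe set in each of the 14 rats, control in blue and learning in orange, with a black bar at the group mean. The left panel holds the 9 tested probe sets and the right panel the 7 with a mean under 4. The groups overlap in every probe set shown, and the third brightest Gabbr1 probe set spreads from 7.85 to 9.83.

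The sequences before the starts of 3 of these genes are shown with their matches to short motifs. Gad1 and Gad2 are shown because they encode enzymes of the same reaction and differed in whether the array measured them above the filter, and Gabbr2 because it had the smallest p of the tested probe sets. RefSeq's promoter table for the GRCr8 build matched 8 of the 9 genes, all but Abat. The 250 bases before each transcript start are given 5′ to 3′ on the gene's strand. Gad1 lies on the + strand at chr3:75777202-75777451, Gad2 on the + strand at chr17:89671468-89671717 and Gabbr2 on the - strand at chr5:66083696-66083945. Capitals mark TATAAA on the gene's strand, and on both strands GGGCGG, a GC box, TGACG, a half-site of the cAMP response element, and TGANTCA, an AP-1 site.
Gad1: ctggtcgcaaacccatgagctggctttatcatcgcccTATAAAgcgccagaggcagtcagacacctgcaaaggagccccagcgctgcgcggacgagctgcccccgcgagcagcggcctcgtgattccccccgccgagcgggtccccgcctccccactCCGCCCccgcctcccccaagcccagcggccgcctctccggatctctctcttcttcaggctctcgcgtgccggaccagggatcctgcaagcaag
Gad2: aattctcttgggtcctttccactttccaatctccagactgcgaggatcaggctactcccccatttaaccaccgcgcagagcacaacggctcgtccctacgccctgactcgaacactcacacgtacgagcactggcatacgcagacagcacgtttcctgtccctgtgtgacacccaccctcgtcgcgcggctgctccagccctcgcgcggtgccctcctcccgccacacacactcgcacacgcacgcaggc
Gabbr2: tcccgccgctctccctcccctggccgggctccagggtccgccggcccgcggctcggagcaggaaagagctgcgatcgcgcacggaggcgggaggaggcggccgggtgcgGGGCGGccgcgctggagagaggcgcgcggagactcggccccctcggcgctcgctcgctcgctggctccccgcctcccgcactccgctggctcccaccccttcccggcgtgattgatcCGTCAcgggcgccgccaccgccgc

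The Gad1 window held TATAAA 213 bases and, on the opposite strand, a GC box 93 bases before the start, counted to the first base of the match. The Gabbr2 window held TGACG on the opposite strand 24 bases and a GC box 141 bases before the start. The Gad2 window held none of these letters. GC boxes were present in 7 of the 8 windows and in 30.5% of the 33469 windows of the table. TGACG was present in 2 of the 8, Gabbr2 and Slc32a1, and in 18.2% of all windows. TATAAA was present in 1 of the 8 and in 8.06% of all, and TGANTCA in 0 of the 8 and in 6.34% of all. The windows were rich in G and C, with 68.4% in Gad1, 62% in Gad2 and 78.8% in Gabbr2, beside a median of 51.2% over all windows. These matches describe sequence only, and binding was not measured.

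Gad1, the larger decarboxylase, was the 1 synthesis gene measured above the filter. On the brighter of its 2 probe sets the log2 level ran from 10.15 to 10.70 with a median of 10.45 in control rats. In learning rats it ran from 10.15 to 10.37 with a median of 10.20. All 7 learning rats lay below the control median, and 5 of 7 control rats lay above the highest learning rat, while control replicate 7, at 10.15, lay with the lowest learning rats. The means were 10.43 ± 0.19 (SD, n = 7) and 10.24 ± 0.10 (SD, n = 7), a difference of -0.19 ± 0.08 log2 units (SE), or 1.14-fold higher in control tissue. Its 95% confidence interval ran from -0.35 to -0.02, with limma's p at 0.0297 unadjusted and an adjusted p of 0.338, so the difference did not pass. Without control replicate 1 it was -0.16 and without control replicate 4 it was -0.14, with adjusted p values of 0.403 and 0.503 in limma, and in both the unadjusted p was above 0.05.

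The dimmer Gad1 probe set gave a difference of the other sign. It ran from 4.58 to 5.37 in control rats, with control replicate 3 at the low end, and from 4.97 to 5.42 in learning rats, with a median of 5.19 in both groups. The difference was 0.08 ± 0.11 (SE), with an interval from -0.15 to 0.31 and an adjusted p of 0.765 in limma. It was -0.0098 without control replicate 3. Across the 14 rats the Gad1 probe sets showed no relation that could be detected, with Pearson's r = 0.0065 (permutation p = 0.982), rho = 0.04 (permutation p = 0.904), and r = -0.47 without control replicates 1 and 4. The gap between them within each array was 5.30 ± 0.29 in control rats and 5.04 ± 0.18 in learning rats (SD, n = 7). The groups' gaps differed by -0.27 (exact permutation p = 0.0472; adjusted p = 0.124 over the 5 pairs of probe sets compared), so the gap did not differ past adjustment.

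Markers of GABA neurons were read beside this difference. Of 24 markers of these neurons other than GABA genes, 17 had a probe set and 6 were tested, 3 higher and 3 lower in learning rats, and none of them passed. The peptide genes Cck and Npy and the extracellular matrix gene Reln were the brightest. Their differences were 0.09 ± 0.09 (SE) for Cck, 0.12 ± 0.10 (SE) for Npy and 0.27 ± 0.16 (SE) for Reln, and the lower ones were Pvalb at -0.01 ± 0.09 (SE), Kit at -0.15 ± 0.12 (SE) and Rbp4 at -0.19 ± 0.34 (SE). Their adjusted p values in limma were 0.497 or higher. Pvalb, a calcium-binding protein, defines the fast-spiking class of GABA neurons. The mean of the 6 markers was 7.15 to 7.55 in control rats and 7.23 to 7.45 in learning rats, differing by 0.02 (two-sided exact permutation p = 0.758). Sst, Calb2 and Vip, which define other classes of GABA neurons, had means of 3.84, 2.42 and 2.97 and were below the filter. With the marker mean as a covariate, the brighter Gad1 probe set differed by -0.19 (adjusted p = 0.327 in limma). The marker mean differed by 0.02 between the groups, so this fit could change the difference little. Over the 14 rats the marker mean had r = 0.08 with Gad1. Rbp4, with an SD of 0.79 in control rats, was part of that mean. Control replicates 3, 4 and 5 were the highest control rats on it and on the mean of meningeal markers given below. The part of GABA neuron content in the Gad1 difference was not tested. In tissue RNA, fewer cells of a type and less RNA per cell cannot be told apart.

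Gad2, the smaller decarboxylase, was near the floor of the array. Its single probe set ran from 3.27 to 4.02 in controls with a median of 3.75, and from 3.65 to 4.57 in learning rats with a median of 3.72. Learning replicate 1 alone reached 4.57, and the next learning rat was at 3.84. The difference was 0.16 (two-sided exact permutation p = 0.362), and 0.04 without learning replicate 1. Such a level says that this probe set saw little signal, not that Gad2 RNA is missing from the tissue.

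Slc32a1, the vesicular GABA transporter, was below the filter in every rat. It ran from 3.33 to 3.58 in controls with a median of 3.37, and from 2.88 to 3.40 in learning rats with a median of 3.32. In 4 of 7 learning rats it was below the lowest control rat, with learning replicate 3 furthest down at 2.88. The difference was -0.13 (exact permutation p = 0.0507), and -0.06 without that rat (exact permutation p = 0.113). With other single rats left out, p lay between 0.0175 and 0.150. GCRMA, the method behind these values, compresses differences near background, so for Gad2 and Slc32a1 the sizes are uncertain.

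No relation between these genes passed adjustment. Over the 14 rats Gad1 and Slc32a1 had r = 0.47 (permutation p = 0.0957) and Spearman's rho = 0.34 (permutation p = 0.234), with an adjusted p of 0.431 over 9 relations. Without control replicates 1 and 4, which lie farthest from the Gad1 median, r was 0.27. Taken over the average of each gene's probe sets, r was 0.57 (permutation p = 0.0429). Gad1 and Gad2 had r = -0.05 (permutation p = 0.859) with rho = -0.12 (permutation p = 0.685). Gad2 and Slc32a1 had r = -0.0028 (permutation p = 0.986) with rho = 0.01 (permutation p = 0.975). Gad1 and the marker mean had r = 0.08 (permutation p = 0.788) with rho = 0.04 (permutation p = 0.892). Gad2 and the marker mean had r = 0.23 (permutation p = 0.446) with rho = 0.09 (permutation p = 0.762). Values near background, as in Gad2 and Slc32a1, limit what such relations can show.

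Slc6a11 and Abat, which take up and degrade GABA, were read at the low end of the scale. Slc6a11 ran from 2.91 to 3.02 in controls and from 2.88 to 2.98 in learning rats, a difference of -0.03 (exact permutation p = 0.179). The dimmer Abat probe set stayed between 2.89 and 3.02 over all 14 rats (exact permutation p = 0.793). The brighter Abat probe set ran from 3.65 to 4.32 in controls with a median of 3.67, and from 3.57 to 3.68 in learning rats with a median of 3.64. Control replicates 4 and 5, at 4.32 and 3.90, were the ones above the rest. The difference was -0.16 (exact permutation p = 0.0169, the lowest of the 7 probe sets under the filter), and -0.07 without control replicate 4 (exact permutation p = 0.0239). Leaving out learning replicate 3 gave -0.15 (exact permutation p = 0.163), and this p was under 0.05 without any 1 control rat and above it without any 1 learning rat. With no filter on low values, limma gave it an adjusted p of 0.616.

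Astrocyte markers were read beside Slc6a11. All 15 astrocyte markers had a probe set and 14 were tested, 4 higher and 10 lower in learning rats. In limma 1 of them, a lower one, had an unadjusted p below 0.05, and none passed adjustment. The mean of the 14 ran from 10.43 to 10.66 in controls and from 10.38 to 10.52 in learning rats. It differed by -0.06 (two-sided exact permutation p = 0.137). The 3 brightest were Apoe, the main lipid carrier of the brain, S100b, a calcium-binding protein, and Gja1, the gap junction protein connexin of astrocytes, and they differed by 0.06, -0.05 and -0.03. With 1 rat left out in turn, the Gja1 difference lay between -0.06 and 0.0034, so its sign could turn. Slc6a11 and the astrocyte mean had r = 0.24 (permutation p = 0.400) with rho = 0.13 (permutation p = 0.670) over the 14 rats, and r = 0.02 without control replicate 4 and learning replicate 3. Slc6a11 and Abat had r = 0.47 (permutation p = 0.0956) with rho = 0.62 (permutation p = 0.0213), but r = -0.18 without the same rats. The adjusted p of these r values was 0.670 and 0.431.

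Gphn, the gephyrin scaffold, did not pass the test. It ran from 8.53 to 9.02 in controls with a median of 8.95, and from 8.61 to 8.89 in learning rats with a median of 8.76. All 7 learning rats were below the control median, yet control replicate 1, at 8.53, was the lowest of all rats. The difference was -0.11 ± 0.07 (SE), with an interval from -0.27 to 0.05 and an adjusted p of 0.531 in limma. Without control replicate 1 it was -0.17, with limma's p at 0.00997 unadjusted and an adjusted p of 0.283.

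Slc12a5, the chloride extruder, had 1 probe set and did not pass either. It ran from 11.54 to 11.87 in controls with a median of 11.64, and from 11.46 to 11.82 in learning rats with a median of 11.60. The groups overlapped over most of their range. The difference was -0.04 ± 0.07 (SE), with an interval from -0.18 to 0.10 and an adjusted p of 0.810 in limma. Gphn and Slc12a5 had r = 0.22 (permutation p = 0.439) with rho = 0.16 (permutation p = 0.584), and r = -0.0057 without control replicate 1 and learning replicate 5.

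**Figure D2:**
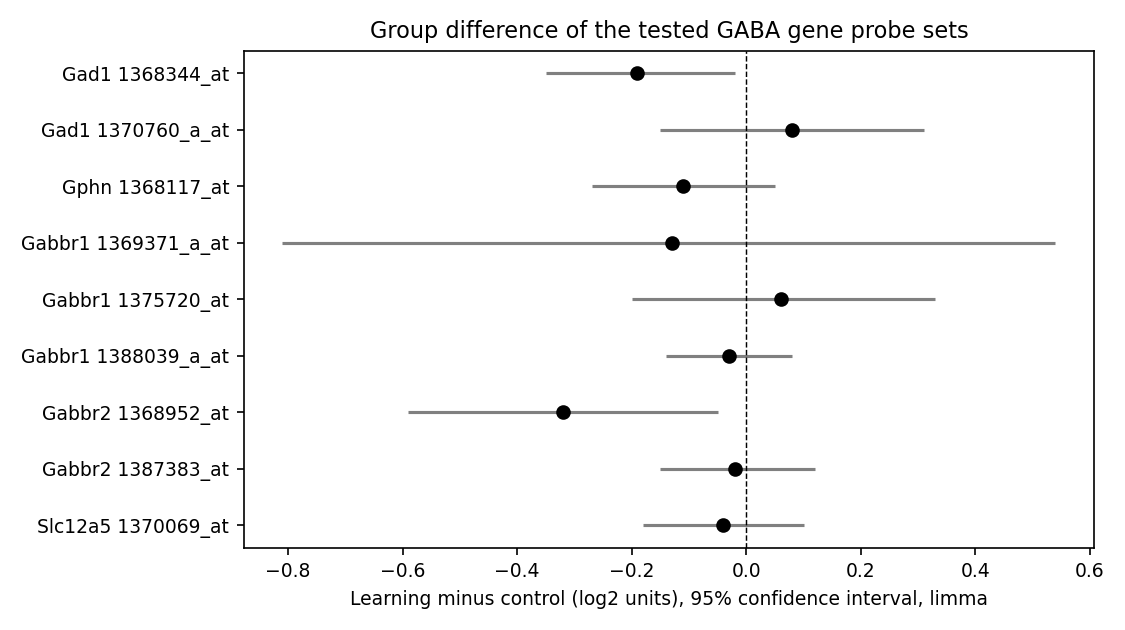
Difference, learning minus control, in log2 units (horizontal axis) for the 9 tested GABA gene probe sets, with 95% confidence intervals from limma. The intervals of the brighter Gad1 probe set, from -0.35 to -0.02, and the dimmer Gabbr2 probe set, from -0.59 to -0.05, leave out 0 before adjustment, and that of the third brightest Gabbr1 probe set, from -0.81 to 0.54, is the widest of the 9.

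Gabbr2, the GABA-B subunit that couples to G proteins, had 2 tested probe sets, and neither passed. The brighter one ran from 9.58 to 9.85 in controls with a median of 9.65, and from 9.54 to 9.89 in learning rats with a median of 9.62. Its difference was -0.02 ± 0.06 (SE), with an interval from -0.15 to 0.12 and an adjusted p of 0.928 in limma. The dimmer one ran from 4.39 to 5.20 in controls with a median of 4.48, and from 3.96 to 4.48 in learning rats with a median of 4.39. Control replicates 1, 2 and 5, at 4.91, 4.81 and 5.20, lay above every learning rat, and the other control rats lay among them. The difference on this probe set was -0.32 ± 0.13 (SE), or 1.25-fold higher in control tissue, with limma's p at 0.0232 unadjusted and an adjusted p of 0.315. Its mean of 4.50 was near the filter, and learning replicate 5, at 3.96, lay under 4, so the size is uncertain.

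The gap between the Gabbr2 probe sets was -5.03 ± 0.27 in control and -5.33 ± 0.28 in learning rats (SD, n = 7), differing by -0.30 (exact permutation p = 0.0495; adjusted p = 0.124 over the 5 pairs), which did not pass. Over the 14 rats they had r = 0.10 (permutation p = 0.740) with rho = 0.02 (permutation p = 0.952). Without control replicates 1 and 5 r was -0.56. Markers of neighbouring tissue are given beside this probe set. Of 10 markers of the neighbouring CA1 field, 9 had a probe set and 6 were tested, and their mean was 6.79 to 7.88 in control rats and 7.28 to 7.75 in learning rats. That mean was higher in learning rats by 0.31 (two-sided exact permutation p = 0.0495). With it as a covariate the dimmer Gabbr2 difference was -0.53, with limma's p at 0.00045 unadjusted and an adjusted p of 0.255. That fit takes 1 slope on the CA1 mean for both groups. Control replicate 5 was the highest rat on both measures, at 7.88 and 5.20. Learning replicate 5, the lowest on the probe set at 3.96, had a CA1 mean of 7.59. Whether 1 slope holds in both groups was not tested. The same covariate left the brighter Gad1 probe set at -0.17, with limma's p at 0.0946 unadjusted and an adjusted p of 0.520. The part of CA1 tissue in this result was not tested.

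Gabbr1, the GABA-B subunit that binds GABA, was covered by 5 probe sets. Of these, 3 were tested and 2 had means of 1.55 and 2.48, with levels from 1.52 to 1.57 and from 1.78 to 3.24 and group differences at exact permutation p = 0.651 and 0.524. They are called here by their order of mean level. The brightest ran from 11.13 to 11.27 in controls with a median of 11.24, and from 11.02 to 11.32 in learning rats with a median of 11.16. Its difference was -0.03 ± 0.05 (SE), with an interval from -0.14 to 0.08 and an adjusted p of 0.804 in limma. The second ran from 9.18 to 9.80 in controls and from 9.10 to 9.94 in learning rats, and differed by 0.06 ± 0.12 (SE). Its sign was turned with the CA1 marker mean as a covariate (-0.05) and without control replicate 6 (-0.0054).

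The third Gabbr1 probe set had a wide spread within both groups. It ran from 7.85 to 9.83 in controls with a median of 9.09, and from 8.16 to 9.56 in learning rats with a median of 9.01. Control replicates 1, 6 and 7 were high, at 9.75, 9.83 and 9.68, and control replicate 2 was low. The group difference was -0.13 ± 0.32 (SE), with an interval from -0.81 to 0.54, and an adjusted p of 0.875 in limma. The SD was 0.76 in control rats and 0.55 in learning rats, beside 0.06 and 0.10 for the brightest probe set of the same gene.

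The second and the third Gabbr1 probe set were also compared rat by rat. Over the 14 rats r was -0.63 (permutation p = 0.0142; adjusted p = 0.0709 over the 5 pairs) with rho = -0.54 (permutation p = 0.0480). Within the control rats r was -0.65 and within the learning rats -0.61, each over 7 rats and given as a description. Without control replicate 2 and learning replicate 6, which lie farthest from the median of the third probe set, r was -0.68. Control replicates 1 and 6 and learning replicate 4 held the low end of the second probe set, at 9.34, 9.18 and 9.10, while their values on the third were 9.75, 9.83 and 9.56. Without these 3 rats r was -0.23 over the other 11. They were picked for these values, which itself weakens r, so how far the relation rested on them was not tested. Control replicate 7 was high on both, at 9.75 and 9.68. The relation did not pass adjustment, and it was singled out after the values were seen. The brightest and the third had r = 0.42 (permutation p = 0.134) and rho = 0.38 (permutation p = 0.176). Without control replicate 2 and learning replicate 6 their r was 0.03. The brightest and the second had r = -0.25 (permutation p = 0.394) and rho = -0.11 (permutation p = 0.715). The annotation used here does not say which Gabbr1 transcript each probe set reads.

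**Figure D3:**
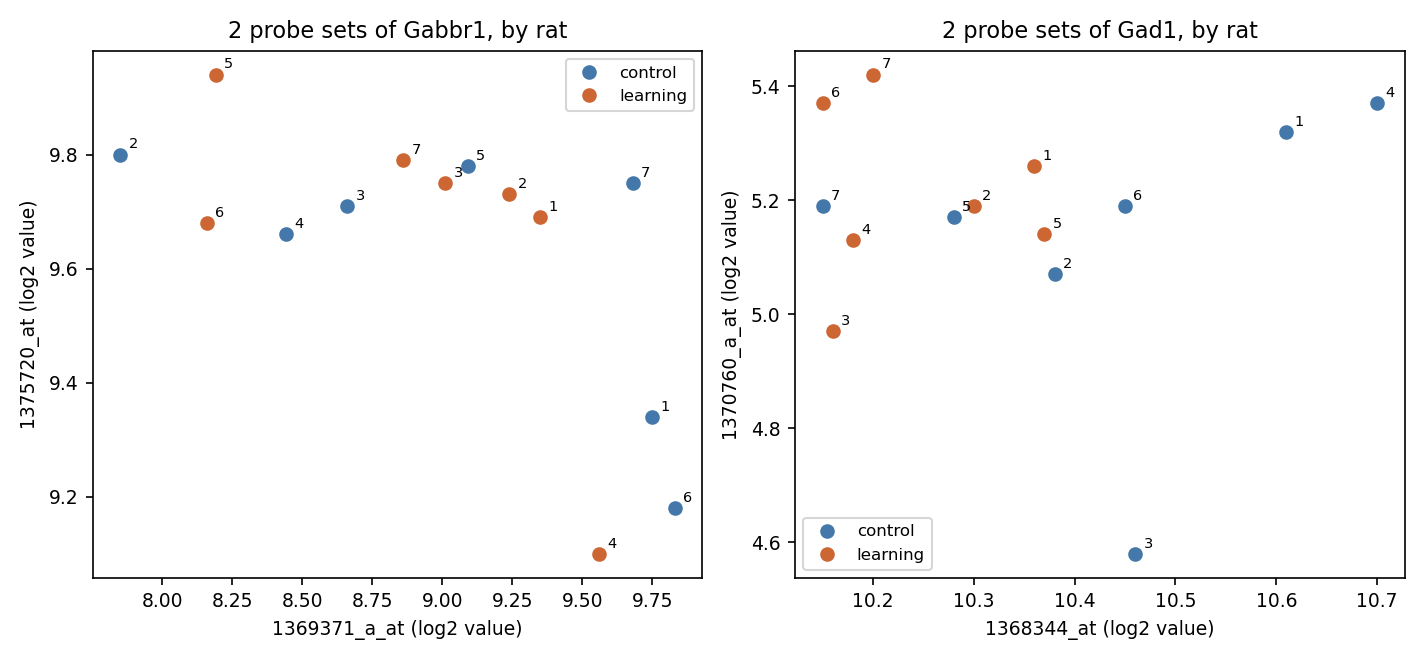
Log2 values of 2 probe sets of Gabbr1 (left) and 2 of Gad1 (right), 1 point per rat with its replicate number, control in blue and learning in orange. In Gabbr1 r was -0.63 over all rats and -0.23 without control replicates 1 and 6 and learning replicate 4, which lie at the lower right, and the Gad1 points show no such slope (r = 0.0065).

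The subunits of the GABA-B receptor were also set against each other on their brightest probe sets. Gabbr1 and Gabbr2 had r = 0.29 (permutation p = 0.315) with rho = 0.23 (permutation p = 0.435), and an adjusted p of 0.670. As a sign of RNA quality, the array reads both ends of beta-actin RNA, and the 3′ level exceeded the 5′ level by 1.32 ± 0.09 log2 units in control and 1.41 ± 0.11 in learning rats (SD, n = 7; exact permutation p = 0.131). With it as a covariate the difference was -0.22 for the brighter Gad1 probe set, -0.25 for the dimmer Gabbr2 probe set and 0.08 for the third Gabbr1 probe set, whose sign it turned. For the dimmer Gabbr2 probe set limma's p was then 0.0922 unadjusted, with an adjusted p of 0.489. Its part in these values was not tested.

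Genes that work beside these were taken from 4 lists, and no member of them passed limma's adjusted threshold. Of 76 listed genes 59 had a probe set and 50 were tested, 26 higher and 24 lower in learning rats. At an unadjusted p below 0.05 there were 9, or 18%, against 12.6% of all tested genes, 4 higher and 5 lower. The list medians lay between -0.03 and 0.02, beside 0.0018 over all tested genes. Of the 3 genes named per list, those of smallest p, some had a second probe set that went another way, as given below.

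Among the genes of GABA and glutamate supply, 4 of 9 tested were higher and 5 lower. Akr7a2, an aldehyde reductase that can act on succinic semialdehyde from GABA breakdown, was at 5.79 ± 0.21 in control and 5.99 ± 0.10 in learning rats (SD, n = 7). Its difference was 0.19 ± 0.09 (SE; adjusted p = 0.355 in limma), and control replicate 6 was the low rat at 5.35. Glud1, glutamate dehydrogenase, differed by -0.13, with 0.04 on its second probe set, and Slc38a2, a neutral amino acid transporter that carries glutamine, by -0.18. Aldh5a1, which oxidises succinic semialdehyde after Abat, and Slc6a13, a further GABA transporter, had means of 2.56 and 3.45 and were below the filter.

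Of the chloride balance genes 5 of 8 tested were higher and 3 lower. Slc12a2, the importer that works against Slc12a5, was at 7.36 ± 0.20 in control and 7.57 ± 0.12 in learning rats (SD, n = 7), and differed by 0.21 ± 0.09 (SE; adjusted p = 0.339 in limma). Slc4a10, a sodium-dependent bicarbonate transporter of neurons, ran from 10.42 to 10.76 in controls and from 10.07 to 10.64 in learning rats. Its difference was -0.27 ± 0.09 (SE; adjusted p = 0.251 in limma). Slc4a3, an anion exchanger, differed by 0.21. Slc12a4 and Slc12a7, paralogs of Slc12a5, were below the filter.

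At the inhibitory postsynapse 7 of 15 tested genes were higher and 8 lower, and the 3 of smallest p were all lower. Gabarapl1, of the family that traffics GABA-A receptors and builds autophagosomes, ran from 10.68 to 11.08 in controls and from 10.04 to 10.88 in learning rats. It differed by -0.36 ± 0.11 (SE; adjusted p = 0.233 in limma). Pfn1 and Pfn2, the actin-binding profilins that also bind gephyrin, both differed by -0.22, with adjusted p values of 0.258 and 0.338 in limma and -0.02 on the second Pfn2 probe set. Nlgn2, the adhesion protein of inhibitory synapses, had a mean of 3.86 and was below the filter.

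Of the genes of GABA-B signalling 10 of 18 tested were higher and 8 lower. Kctd12, an auxiliary subunit of the GABA-B receptor, ran from 10.61 to 10.86 in controls and from 10.73 to 11.07 in learning rats. It differed by 0.21 ± 0.07 (SE; adjusted p = 0.236 in limma). Gnb1, a G protein beta subunit, was higher on its brightest probe set by 0.32 ± 0.08 (SE; adjusted p = 0.168 in limma), against -0.31 and -0.29 on the remaining Gnb1 probe sets. Gnao1, an alpha subunit through which GABA-B receptors signal in neurons, was at 8.29 ± 0.40 in control and 7.80 ± 0.26 in learning rats (SD, n = 7). It differed by -0.48 ± 0.16 (SE; adjusted p = 0.251 in limma) on the array's single Gnao1 probe set. The channel genes Kcnj3 and Kcnj6, whose products GABA-B receptors open, differed by 0.09 and 0.10 on their brightest probe sets, and Kcnj6 by 0.34 and -0.0053 on its other tested ones.

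**Figure D4:**
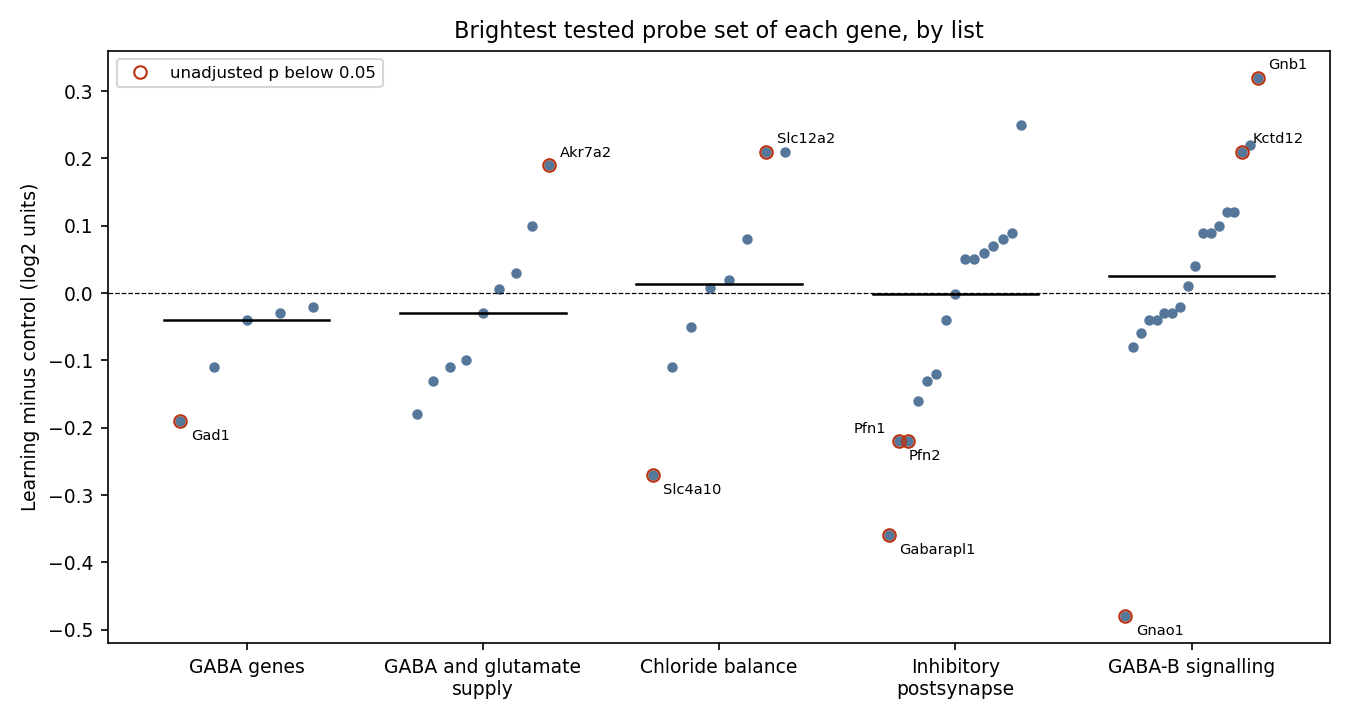
Difference, learning minus control, in log2 units (vertical axis) for the brightest tested probe set of each gene, in the GABA genes and the 4 lists of genes that work beside them, with a black bar at each median. Red rings mark an unadjusted p below 0.05, met by 1 GABA gene and 9 of the 50 list genes, and no point passed the adjusted threshold.

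The genes whose rat-to-rat pattern was most like that of a GABA gene were found by correlation over the 14 arrays after the group means had been removed. For Gad1 these were C15h14orf119 (r = 0.87), Lhpp (0.84) and Med11 (0.84), out of 6696 other genes, where the lowest r was -0.82. For Slc12a5 they were Polr3d (0.86), Acsl3 (0.84) and Zfp580 (0.84), with a lowest r of -0.82. For genes near the floor they were Ttyh1 (0.86), Rab3b (0.82) and Zbtb39 (0.81) for Gad2, Tm9sf1 (0.94), Gng3 (0.91) and Tsc2 (0.91) for Slc32a1, and Tmem218 (0.82), Arih1 (0.80) and Usp8 (0.78) for Slc6a11. These are the 3 highest of 6696 or 6697 correlations over 14 arrays. Gad2, Slc32a1 and Slc12a5 each shared an outlying rat with matches. It was learning replicate 1 for Gad2 with Rab3b and Zbtb39, and learning replicate 3 for Slc32a1 with Tm9sf1 and Tsc2. For Slc12a5 with Polr3d it was control replicate 2. The lowest limma adjusted p among these genes was 0.498, that of Arih1.

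Markers of dentate granule cells differed in level. Prox1, a transcription factor of these cells, had a mean of 10.3, while C1ql3 and Tdo2 had means of 3.26 and 2.71, below the filter. Of 12 granule cell markers 8 had a probe set and 6 were tested, 4 higher and 2 lower in learning rats. The largest differences were 0.44 for Dsp and 0.22 for Stxbp6, and Prox1 differed by 0.08. The mean of the 6 was 8.63 in control and 8.74 in learning rats. That mean differed by 0.11 (exact permutation p = 0.0111), and the means of 2 CA3 markers by 0.21 (exact permutation p = 0.0216), of 7 microglial markers by -0.18 (exact permutation p = 0.0408), of 2 mossy cell markers by -0.08 (exact permutation p = 0.247), of 6 oligodendrocyte markers by -0.02 (exact permutation p = 0.892) and of 10 meningeal markers by -0.30 (exact permutation p = 0.612). The p values of the marker means were not adjusted over the 9 marker lists. The meningeal mean ran from 4.82 to 7.70 over the 14 rats. With it as a covariate, the brighter Gad1 and the dimmer Gabbr2 probe sets differed by -0.19 and -0.31. Array medians over all probe sets other than controls were 5.09 to 5.12.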

How the data were processed

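The authors deposited log2 values, 1 per probe set and array. GCRMA is named in the submitters' processing notes as the method, per the labels. The values come from biotin-labelled RNA on Affymetrix RAE230A arrays per the labels' protocols. For GCRMA, version and options were not given in the sources used here. The log2 scale was read from the values, -0.56 to 15.0. GCRMA corrects background by probe sequence and normalizes arrays to each other. A probe's brightness depends on its sequence, so levels of different probe sets were not ranked as RNA amounts.

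Of 15923 probe sets 57 controls were left out and 9387 with a mean of at least 4 were tested with limma 3.58.1 (lmFit, eBayes) in R 4.3.3 across all probe sets, without covariates, with Benjamini-Hochberg adjustment. Means under the filter and marker means were put through exact permutation tests, two-sided, over the 3432 assignments of arrays (smallest p 0.000583), without adjustment. Correlations used 100000 permutations. The fit was tested on simulated data, 9387 independent normal probe sets of which 200 were changed. At the adjusted threshold it recovered 18.2% of changes of 0.25 log2 units and 81% of changes of 0.5. Most changes of 0.25 were thus missed, and a result that did not pass does not show that a gene was unchanged. The number of arrays limits the precision.

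The GABA genes, the 4 gene lists (supply, chloride balance, inhibitory postsynapse, GABA-B signalling), the 9 marker lists and the tests were chosen with earlier results of these data known. Genes named were all GABA genes, the 3 of smallest p per list, the 3 of highest mean among interneuron and astrocyte markers, and the 3 most correlated with each of Gad1, Gad2, Slc32a1, Slc6a11 and Slc12a5. Aldh5a1, Slc6a13, Slc12a4, Slc12a7, Nlgn2, Kcnj3, Kcnj6, Pvalb, Kit, Rbp4, Sst, Calb2, Vip and Prox1 fall outside this rule and were named after their values were seen, and the same holds for the tests between probe sets of a gene. C1ql3, Tdo2, Dsp and Stxbp6 were also named outside this rule, after their values were seen. Probe sets ending in _a_at can read several transcripts. A gene in a list was its probe set of highest mean. Symbols came from the platform annotation, and promoter sequences from RefSeq's table for GRCr8. Proteins were not used here. Figures were drawn with matplotlib 3.10.9.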

Additional observations from a re-analysis of the deposited data

Results flagged for a closer look

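In groups of 7, a highest or lowest rat whose gap to the next was large against the group's range (above Dixon's 95% critical value) was sought. Among the GABA genes such a rat was found in 8 of 32 groups. The critical value gives about 5% of groups only where values are normally distributed, and the share over all probe sets was not counted. The 32 groups include the 7 probe sets under the filter, so 8 of 32 is not read as a trait of the GABA genes. Over all groups examined it was found in 17 of 116. That count includes genes picked for their correlation with a GABA gene, outlying rats included, so it cannot be set beside 5%. The GABA gene groups come first. In control rats these were the dimmer Gad1 probe set at 4.58 in replicate 3, the brighter Abat probe set at 4.32 in replicate 4 and Slc12a5 at 11.87 in replicate 2. In learning rats these were Gad2 at 4.57 in replicate 1, Slc32a1 at 2.88 in replicate 3, the dimmer Abat probe set at 3.02 in replicate 5, the second brightest Gabbr1 probe set at 9.10 in replicate 4 and the dimmer Gabbr2 probe set at 3.96 in replicate 5.

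Among the other genes named, control replicate 6 stood apart in Akr7a2 at 5.35 and Tmem218 at 8.10, and control replicate 2 in Polr3d at 8.81. Learning replicate 1 stood apart in Rab3b at 8.04 and Zbtb39 at 4.77, learning replicate 3 in Tm9sf1 at 4.07 and Tsc2 at 6.46, learning replicate 4 in Gja1 at 12.74 and learning replicate 5 in Lhpp at 7.48.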

How the results depend on the processing

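The count of GABA gene probe sets past the adjusted threshold was 0 under every alternative run, and the count over all tested probe sets was 0 under each alternative that kept all rats and 0 to 1 with 1 rat left out (1 without control replicate 6, learning replicate 1 or learning replicate 4). The brighter Gad1 probe set stayed lower in learning rats in all 26 alternatives, from -0.23 to -0.14, with an unadjusted p below 0.05 in 20 of them. The dimmer Gabbr2 probe set did so in all 25 that held it, from -0.53 to -0.23, with such a p in 21. A filter at a mean of at least 5 left it out, since its mean was 4.50. In limma the adjusted p ran from 0.194 to 0.520 for the first and from 0.237 to 0.491 for the second. With the replicate number as a block, these differences were -0.19 and -0.32, with adjusted p values of 0.334 and 0.365 in limma. The second then had an unadjusted p of 0.0554, so 1 and not 2 of the 9 probe sets was below 0.05. Whether the numbers pair rats was not tested. Deviations of same-numbered rats correlated from -0.28 to 0.26, over 0.1 in 4 of 7 pairs. Of the 14 rats, 6 correlated best with their own number, where 2 would if every number were equally likely.

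Some signs turned. With the CA1 marker mean as a covariate, the second brightest Gabbr1 probe set was at -0.05, and without control replicate 6 at -0.0054. The dimmer Gad1 probe set was at -0.0098 without control replicate 3, and with 1 rat left out in turn lay between that and 0.12. The brighter Gabbr2 probe set was at 0.01 without control replicate 1 and at 0.0064 without learning replicate 1, with a lowest value of -0.05, and the second brightest Gabbr1 probe set reached 0.16, with 1 rat left out. With the beta-actin difference as a covariate, chosen after seeing the data, the third Gabbr1 probe set was at 0.08. Without the 2 farthest rats, r was 0.17 for Gad1 and Gad2, 0.16 for Gad2 and Slc32a1, -0.18 for Slc6a11 and Abat, -0.0057 for Gphn and Slc12a5, -0.10 for Gad1 and -0.0023 for Gad2 with the interneuron marker mean. After centring on group means, r was 0.14 for Gad1 and Gad2 and 0.15 for Gad2 and Slc32a1. Over the average of each gene's probe sets, r was -0.05 for Gabbr1 and Gabbr2 and -0.04 for Gad1 and the interneuron mean. The cause of these changes was not tested. Of the GABA genes, those with means near or under 4 are limited by signal over background.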
